A study of Homo sapiens with 4 samples.

Results

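Homologous recombination and repair genes were followed in a colon cancer epithelial cell line, LSTGFBR2, either given TGF-β1 or left untreated. TGF-β1 is a secreted cytokine that slows the division of epithelial cells. The set is a list of 32 genes of homologous recombination, the Fanconi anaemia pathway, the damage checkpoint, mismatch repair and uracil removal. A gene was included in the results where the array annotation gives it at least 1 probe set with that single symbol, which left 28 of the 32, out of 19775 genes on the arrays. BRCA2, FANCA, FANCD2 and RBBP8 had no such probe set and were not analysed here. The 4 arrays (HG-U133 Plus 2.0, total RNA) came from 2 TGF-β1 samples and 2 untreated samples. The TGF-β1 cells received 5 ng/ml of human recombinant TGF-β1 for 16 hours, and the untreated cells received none. Both groups carry a construct for TGFBR2, a receptor for TGF-β, behind a promoter switched on by doxycycline. The protocol text, identical for every sample, puts doxycycline at 1 µg/ml (its growth section gives the same figure in µM), and the design text speaks of its presence or absence, so its presence in each sample is not known from the labels. The labels do not say whether the line is 1 clone.

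Homologous recombination copies the sister DNA molecule to repair a double-strand break or a collapsed replication fork without loss of sequence. The break ends are trimmed to single strands, and BRCA1, PALB2, BRCA2 and their helpers prepare these strands to invade the intact copy. The Fanconi proteins recognise crosslinks between the strands and hand them to the same machinery, while the kinases ATR, ATM, CHEK1 and CHEK2 halt the cell cycle meanwhile. Because a sister copy exists only after replication, many of these genes are transcribed mainly in late G1 and S phase, in part through E2F transcription factors. Mismatch repair, in which MSH6 works, and uracil removal by UNG also follow the replication fork.

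The groups differed in the receptor as well as in TGF-β1. TGFBR2 read 14.70 and 14.92 in TGF-β1 arrays against 9.44 and 9.55 in untreated arrays by its _s_at probe set, and 10.58 and 10.76 in TGF-β1 arrays against 10.47 and 10.81 in untreated arrays by its _at probe set. TGF-β1 and induction of the construct therefore cannot be told apart in what follows. Of 11 intestinal epithelial markers 10 lay above the median of the tested genes on every array, while all 6 endothelial and all 5 measured leukocyte markers lay below it on every array, as did 6 of 8 fibroblast markers. Of the 11 epithelial markers 1 fell, CDX2 (log2 fold change -0.73, limma adjusted p = 0.0327), and 0 rose (2 lower and 2 higher at an unadjusted p). Over all genes 1.47% fell and 1.87% rose (8.54% lower and 8.18% higher at an unadjusted limma p under 0.05). Of the 11 epithelial marker estimates 8 were above 0 and 3 below, with a median of 0.08. In bulk RNA, fewer cells in S phase and less RNA per cell cannot be told apart.

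Of the 28 repair genes, 3 fell and 0 rose at a limma adjusted p under 0.05 over all genes, against 1.47% of all genes that fell and 1.87% that rose. All genes include dim ones, whose changes RMA compresses, whereas 27 of the 28 had a mean log2 value of 7 or more. Tested alone, genes with such means gave 443 that fell, against 291 over all genes. Shares among equally bright genes were not worked out. The 3 repair genes called over all genes were UNG, the uracil DNA glycosylase that starts the removal of uracil from DNA, EXO1, an exonuclease that trims DNA ends and removes mismatched strands, and MSH6, which recognises mismatched bases. Their start regions are shown first, as those of the called genes. All 3 hold a match to a textbook E2F site, a motif chosen with earlier results of these data known. The sequences are RefSeq promoter windows (GRCh38.p14, plus strand, 5′ to 3′), from 250 bases before to 50 bases after an annotated transcript start. The capitals mark the E2F match. The UNG window is chr12:109097922-109098221, the EXO1 window chr1:241847954-241848253 and the MSH6 window chr2:47782895-47783194.
UNG: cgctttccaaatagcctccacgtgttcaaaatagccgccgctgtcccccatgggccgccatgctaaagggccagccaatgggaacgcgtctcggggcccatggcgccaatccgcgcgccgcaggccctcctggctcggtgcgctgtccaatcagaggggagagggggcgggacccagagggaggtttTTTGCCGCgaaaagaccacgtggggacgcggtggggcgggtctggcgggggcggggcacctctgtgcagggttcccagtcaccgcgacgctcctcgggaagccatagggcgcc
EXO1: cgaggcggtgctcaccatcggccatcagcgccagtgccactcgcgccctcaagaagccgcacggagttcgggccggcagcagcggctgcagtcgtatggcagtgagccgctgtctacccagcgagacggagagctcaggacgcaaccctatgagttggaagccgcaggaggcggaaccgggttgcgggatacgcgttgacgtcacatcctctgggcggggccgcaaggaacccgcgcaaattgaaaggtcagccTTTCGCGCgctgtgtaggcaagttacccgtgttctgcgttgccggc
MSH6: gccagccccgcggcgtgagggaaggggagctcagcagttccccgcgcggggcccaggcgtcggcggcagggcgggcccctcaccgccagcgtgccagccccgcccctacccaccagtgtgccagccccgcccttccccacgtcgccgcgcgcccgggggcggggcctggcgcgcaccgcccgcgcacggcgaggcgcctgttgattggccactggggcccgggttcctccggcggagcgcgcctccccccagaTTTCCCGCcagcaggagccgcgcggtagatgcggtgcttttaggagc

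The motif searched was the 8-letter E2F site in its forms TTTCGCGC, TTTGGCGC, TTTCCCGC and TTTGCCGC, on both strands. No form contains another. TTTGCCGC began 63 bases before the UNG start, TTTCGCGC at base 5 of the EXO1 transcript and TTTCCCGC at base 4 of the MSH6 transcript, counting the start as base 1. UNG and EXO1 each have 2 windows in the table and MSH6 has 4, and in each gene 1 window held a match. Of all 35116 windows 3.32% held a form of the motif, as did 4.07% of the windows of tested genes. Among the 37 windows of repair genes 5 held one. By gene, that was 5 of the 25 repair genes with a window, 3.99% of all genes in the table and 5.36% of tested genes. The other 2 were XRCC2, with TTTCCCGC read on the opposite strand from base 22 of the transcript, and FANCC, with matches that began 172 and 46 bases before its start. The sequence CCAAT, the NF-Y site, was commoner in the table at large: 34.6% of all windows and 19 of the 37 repair gene windows held it on either strand. A match describes these letters only, and binding was not measured.

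UNG read 10.11 and 9.94 in TGF-β1 arrays against 11.02 and 10.91 in untreated arrays. It was 1.92-fold lower, the largest change of the 28 genes, with a log2 difference of -0.94 ± 0.112 (SE, n = 2 per group, limma adjusted p = 0.0153). EXO1 read 9.13 and 9.08 in TGF-β1 arrays against 10.07 and 9.86 in untreated arrays. The groups did not overlap, with gaps between replicates of 0.05 in TGF-β1 and 0.21 in untreated arrays, and EXO1 was 1.81-fold lower (log2 fold change -0.86 ± 0.114 SE, limma adjusted p = 0.0204). MSH6 read 10.52 and 10.59 in TGF-β1 arrays against 11.20 and 11.38 in untreated arrays, which is 1.67-fold lower (log2 fold change -0.74 ± 0.111 SE, limma adjusted p = 0.0295). A second bright MSH6 probe set gave 9.66 and 9.66 in TGF-β1 arrays against 10.42 and 10.43 in untreated arrays, a log2 fold change of -0.77. No estimate reached 2-fold, so 0 members met the study's signature rule turned downward (an unadjusted p under 0.05 with a change of 2-fold or more), which 0.369% of all genes met. With any 1 of the 4 arrays left out, which leaves 1 array in a group, limma called 0 members. UNG then had log2 fold changes of -1.02 to -0.85 (adjusted p from 0.0710 to 0.124), EXO1 of -0.96 to -0.75 (0.0703 to 0.141) and MSH6 of -0.83 to -0.64 (0.116 to 0.155).

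**Figure D1:**
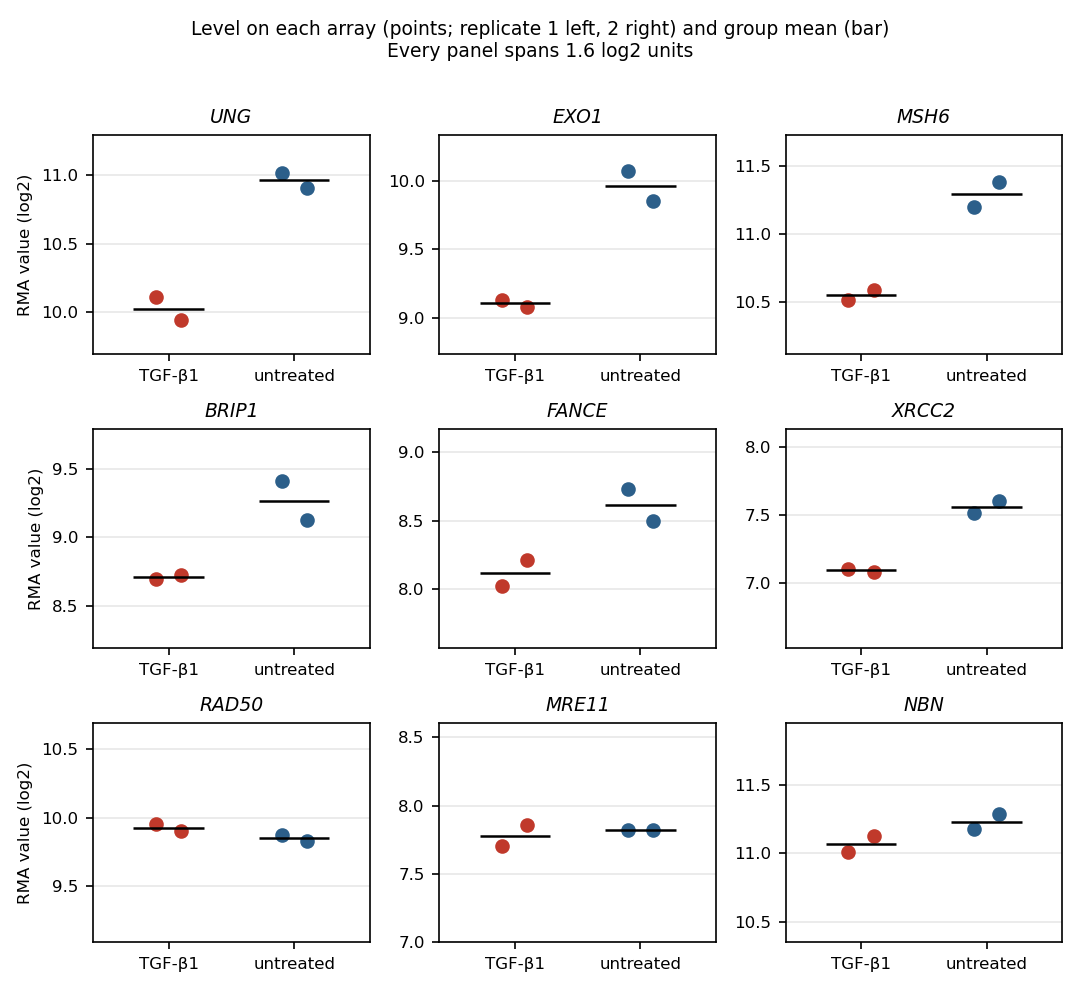
RMA value on the log2 scale on each array, TGF-β1 arrays left and untreated arrays right, for the 6 repair genes with the lowest log2 fold change and the 3 genes of the MRE11-RAD50-NBN complex; points are arrays and bars group means. UNG, EXO1 and MSH6 stand 0.74 to 0.94 lower in TGF-β1 arrays, whereas RAD50 and MRE11 differ by 0.07 and -0.04.

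The other 25 genes did not pass, yet nearly all estimates were below 0. Of the 28 genes 27 had a log2 fold change below 0, against 51.2% of all genes, and in 22 both TGF-β1 arrays lay below both untreated arrays, against 23.0% of all genes. At an unadjusted limma p under 0.05, 15 were lower and 0 higher, against 8.54% and 8.18% of all genes. The 28 genes were chosen with earlier results of these data known. They were read on the same arrays, and their replicate gaps leaned to 1 side. In TGF-β1 replicate 1, 19 were lower, and in untreated replicate 1, 19 were higher. The 28 genes are therefore not separate observations, and whether these counts differ from those of all genes was not tested. The median log2 fold change of the 28 genes was -0.31, with quartiles of -0.43 and -0.15, beside a median of -0.004 and quartiles of -0.12 and 0.11 over all genes. With 1 array left out the median was -0.36 to -0.27. With their own standard errors these genes needed a log2 change of 0.51 (FANCG) to 0.87 (CHEK1) to be called, so a change of the median size could not be called in any of them.

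**Figure D2:**
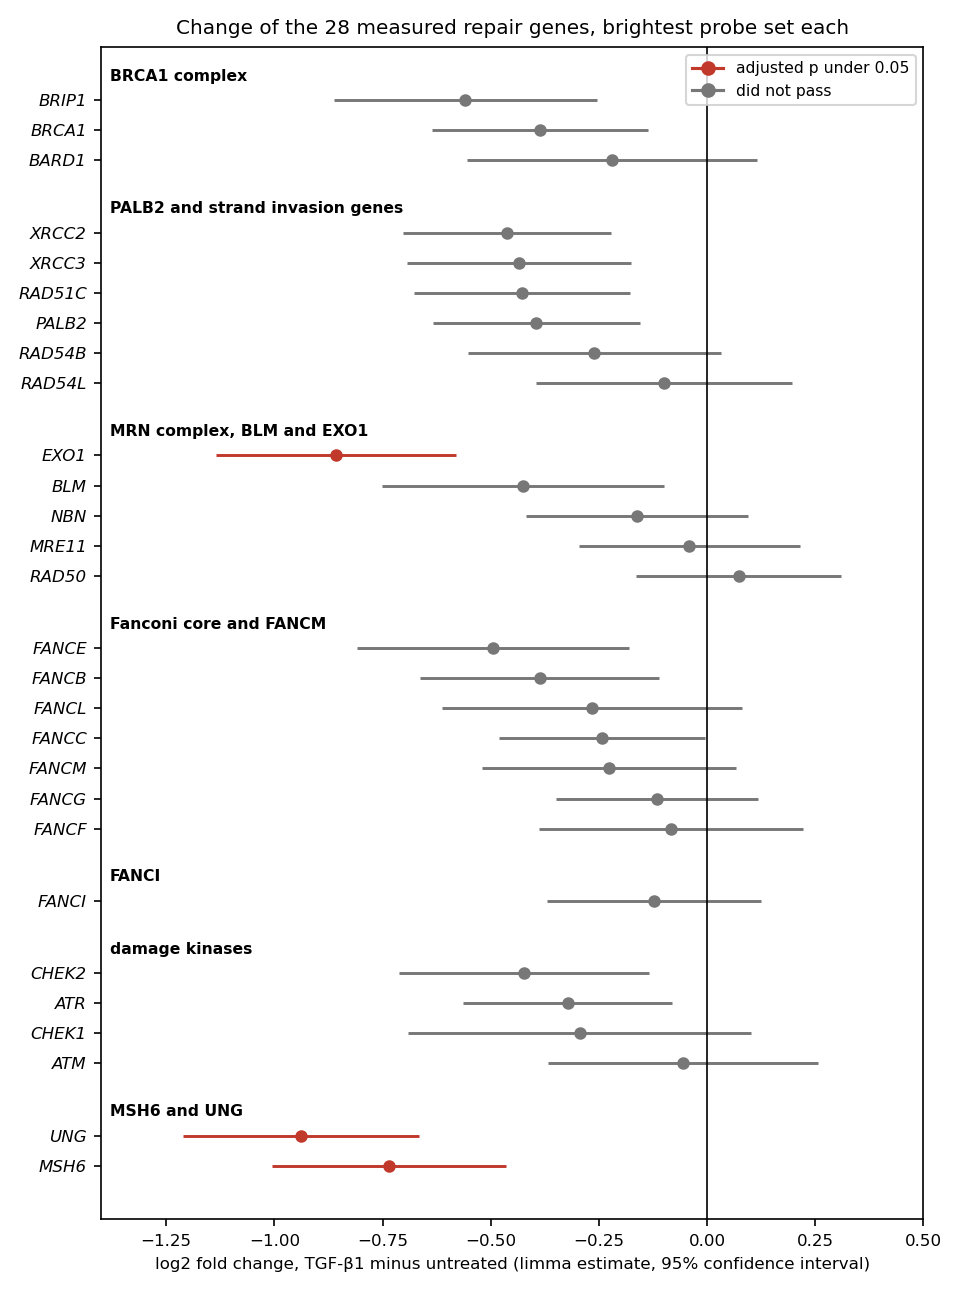
Log2 fold change, TGF-β1 minus untreated, of the 28 repair genes by role; points are limma estimates and bars 95% confidence intervals. The 3 called genes (EXO1, UNG and MSH6) lie lowest, and RAD50 alone has an estimate above 0.

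In the BRCA1 group, BRIP1, the helicase that binds BRCA1, had the lowest estimate. It read 8.69 and 8.72 in TGF-β1 arrays against 9.41 and 9.13 in untreated arrays. Its log2 fold change stood at -0.56 ± 0.125 (SE) and missed the threshold (limma adjusted p = 0.0773), and its second probe set gave -0.63. The groups did not overlap, but the untreated arrays differed by 0.28 between themselves. BRCA1, the ubiquitin ligase and scaffold that directs breaks to recombination, read 9.21 and 9.17 in TGF-β1 arrays against 9.64 and 9.52 in untreated arrays. Its log2 fold change was -0.39 (limma adjusted p = 0.117), and -0.25 by its second probe set. BARD1, the obligate partner of BRCA1, read 10.31 and 10.54 in TGF-β1 arrays against 10.78 and 10.51 in untreated arrays, which overlap. Its other probe sets did not overlap between groups and gave -0.48 and -0.33, so the probe sets of BARD1 disagree in size. With 1 array left out the brightest one ran from -0.35 to -0.09.

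Among the genes that prepare and carry out strand invasion, RAD51C, XRCC2, XRCC3 and PALB2 had estimates of similar size. RAD51C, which helps assemble the invading strand, read 10.74 and 10.80 in TGF-β1 arrays against 11.25 and 11.14 in untreated arrays (log2 fold change -0.43 by one probe set and -0.41 by the other). XRCC2 read 7.10 and 7.08 in TGF-β1 arrays against 7.52 and 7.60 in untreated arrays, and XRCC3 read 7.37 and 7.29 in TGF-β1 arrays against 7.83 and 7.69 in untreated arrays. XRCC2 and XRCC3, which act with RAD51C, had log2 fold changes of -0.46 and -0.43, and neither passed (limma adjusted p = 0.0686 for XRCC2 and 0.0954 for XRCC3, 0.0905 for RAD51C). XRCC2 passed where only genes with a mean log2 value of 7 or more were tested (limma adjusted p = 0.0428). All 4 XRCC2 values and the TGF-β1 values of XRCC3 lay under the medians of the tested genes (7.64 to 7.67), where RMA compresses changes. PALB2, the bridge between BRCA1 and BRCA2, read 9.82 and 9.76 in TGF-β1 arrays against 10.21 and 10.16 in untreated arrays, a log2 fold change of -0.39 (95% confidence interval -0.63 to -0.16, limma adjusted p = 0.100). The DNA translocase genes RAD54B and RAD54L, whose products act in strand invasion, had log2 fold changes of -0.26 and -0.10. With 1 array left out RAD54B ran from -0.37 without TGF-β1 replicate 2 to -0.15 without TGF-β1 replicate 1. RAD54L overlapped between groups, with 8.93 and 9.15 in TGF-β1 arrays against 9.07 and 9.21 in untreated arrays.

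The break-sensing complex of MRE11, RAD50 and NBN held 2 of the 3 smallest changes by size, those of MRE11 and RAD50. RAD50, its structural ATPase, read 9.95 and 9.90 in TGF-β1 arrays against 9.88 and 9.83 in untreated arrays, a log2 fold change of 0.07 (95% confidence interval -0.16 to 0.31, limma adjusted p = 0.812). Its other probe sets gave -0.04 and -0.24, so the sign of its estimate depends on the probe set. MRE11, the nuclease, read 7.70 and 7.86 in TGF-β1 arrays against 7.82 and 7.82 in untreated arrays, and its interval was -0.30 to 0.21. Other MRE11 probe sets, which were dim, gave -0.23 and 0.003. NBN, which recruits ATM, had a log2 fold change of -0.16 (interval -0.42 to 0.10), with -0.21 to 0.22 over its 4 other probe sets. BLM, the helicase that works with EXO1 or DNA2 on break ends and untangles recombined strands, read 8.22 and 8.55 in TGF-β1 arrays against 8.81 and 8.81 in untreated arrays. Its log2 fold change was -0.43 ± 0.134 (SE, limma adjusted p = 0.174), and the TGF-β1 arrays differed by 0.33 between themselves, so that it was -0.26 without TGF-β1 replicate 1.

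Of the 7 measured genes of the Fanconi core complex and FANCM, 0 passed by limma. At an unadjusted limma p under 0.05, 3 were lower, against 8.54% of all genes. All 7 had estimates below 0, against 51.2% of all genes. As members of the set, these 7 carry the limits given above for its counts. FANCE, which links the core complex to FANCD2, read 8.03 and 8.22 in TGF-β1 arrays against 8.73 and 8.50 in untreated arrays (log2 fold change -0.50, limma adjusted p = 0.112). FANCB, a subunit of the catalytic module, read 6.51 and 6.65 in TGF-β1 arrays against 6.88 and 7.05 in untreated arrays (log2 fold change -0.39), all under the medians of the tested genes. FANCL, the ubiquitin ligase subunit, read 10.28 and 10.27 in TGF-β1 arrays against 10.73 and 10.36 in untreated arrays. Its log2 fold change of -0.27 rests largely on untreated replicate 1, as it was -0.08 without that array. The core subunit genes FANCC, FANCG and FANCF had log2 fold changes of -0.24, -0.12 and -0.08, and FANCM, the DNA translocase that anchors the core complex, -0.23. FANCM was at -0.11 without untreated replicate 1, and its other, dimmer probe sets gave -0.07, 0.09 and -0.24. FANCI, the partner with which FANCD2 is ubiquitinated on DNA, gave -0.12, -0.11 and -0.08 by its 3 probe sets, and the first had an interval of -0.37 to 0.12.

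Among the checkpoint kinases, ATR, which senses single-stranded DNA at stalled forks, read 10.41 and 10.42 in TGF-β1 arrays against 10.78 and 10.69 in untreated arrays (log2 fold change -0.32, limma adjusted p = 0.167). A second ATR probe set gave -0.37 and a dim one, with a mean log2 level under 5, -0.11. CHEK1, the kinase that ATR activates, read 10.07 and 10.53 in TGF-β1 arrays against 10.60 and 10.58 in untreated arrays. Its log2 fold change was -0.29 (limma adjusted p = 0.463), and its other probe sets gave -0.22, -0.43 and -0.28. The TGF-β1 arrays differed by 0.46 on the brightest probe set, the widest replicate gap of the 28 genes. The log2 fold change of that probe set was -0.52 without TGF-β1 replicate 2 and -0.06 without TGF-β1 replicate 1. CHEK2, the kinase downstream of ATM, read 9.24 and 9.44 in TGF-β1 arrays against 9.83 and 9.70 in untreated arrays (log2 fold change -0.42, limma adjusted p = 0.136). ATM, which senses double-strand breaks, read 8.34 and 8.36 in TGF-β1 arrays against 8.56 and 8.26 in untreated arrays, which overlap (95% confidence interval -0.37 to 0.26). The 5 other ATM probe sets ranged from -0.55 to 0.16.

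All 65 probe sets of the 28 genes were also tested one by one. With p-values adjusted over all probe sets limma called 3 as lower and 0 as higher, against 0.304% and 0.650% of all probe sets (limma adjusted p = 0.0347 for UNG, 0.0440 for EXO1 and 0.0392 for the second MSH6 probe set). The brightest MSH6 probe set did not pass there (0.0585), and MSH6 did not pass with its 4 probe sets averaged (limma adjusted p = 0.0698), where dim probe sets with means under 6 enter. UNG and EXO1 have 1 probe set each. Of the 16 genes with several probe sets, 10 had all estimates below 0. Of the 37 probe sets other than the brightest, 17 had a mean at or above the median of the tested genes, and all 17 estimates were below 0. Among the 20 dimmer ones 15 were. Several of the 37 read the same gene on the same 4 arrays, so they are not separate observations. The share of estimates below 0 among all probe sets of such brightness was not worked out.

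**Figure D3:**
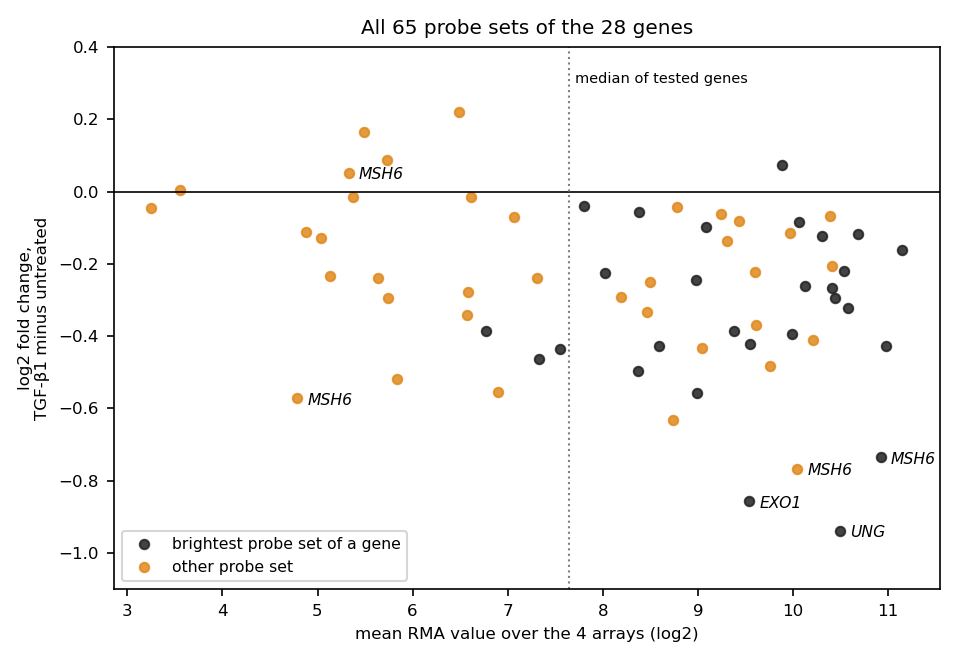
Log2 fold change, TGF-β1 minus untreated, of each of the 65 probe sets against its mean RMA value over the 4 arrays (log2); the dotted line marks the median of the tested genes. Estimates above 0 come from dim probe sets, except the brightest one of RAD50 at 0.07, and the 2 bright MSH6 probe sets lie at -0.74 and -0.77.

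The gaps between replicate arrays were compared for these genes. TGF-β1 replicate 1 minus replicate 2 ran from -0.46 to 0.17 with a median of -0.05, and untreated replicate 1 minus replicate 2 from -0.19 to 0.37 with a median of 0.10. In the TGF-β1 group 19 of the 28 genes were lower in replicate 1, and in the untreated group 19 were higher in replicate 1. Of all 19775 genes, 10125 were lower in TGF-β1 replicate 1 and 9390 higher in untreated replicate 1. The median gaps over all genes were -0.006 and -0.010, so the 28 genes leaned to 1 side more than all genes did. The gaps of the 28 genes lie under the group differences of UNG, EXO1 and MSH6 and are of the size of many others.

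Genes that work beside these were read as lists. The shares over all genes, for every list below, are 1.47% that fell and 1.87% that rose. At an unadjusted limma p under 0.05 they are 8.54% lower and 8.18% higher. Of 45 other recombination and Fanconi genes, 2 fell, 0 rose and 43 did not pass (12 lower and 2 higher at an unadjusted p), with a median log2 fold change of -0.13. RMI1, which forms the strand-untangling complex with BLM and TOP3A, read 10.28 and 10.29 in TGF-β1 arrays against 11.10 and 10.98 in untreated arrays and was 1.69-fold lower (limma adjusted p = 0.0205). FIGNL1, an ATPase that acts in recombination, was 1.48-fold lower (limma adjusted p = 0.0406). Of 19 checkpoint signalling genes, 1 fell and 0 rose (7 lower and 3 higher at an unadjusted p, median -0.09). TIPIN, a fork protection factor, read 9.21 and 8.98 in TGF-β1 arrays against 9.90 and 9.86 in untreated arrays and was 1.72-fold lower (limma adjusted p = 0.0280). RIF1, a regulator of break end choice and replication timing, was at -0.52 on the same scale, short of the threshold (limma adjusted p = 0.0598).

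Of 4 measured further mismatch repair genes, 2 fell and 0 rose (2 lower and 0 higher at an unadjusted p, median -0.35). PMS1, a MutL homologue, read 9.92 and 9.79 in TGF-β1 arrays against 10.75 and 10.49 in untreated arrays, and was 1.70-fold lower (limma adjusted p = 0.0365). With its probe sets averaged, the log2 fold change of PMS1 shrank from -0.77 to -0.37 and did not pass (limma adjusted p = 0.0800). PCNA, the sliding clamp of replication and repair, was 1.49-fold lower, with 12.89 and 12.96 in TGF-β1 arrays against 13.53 and 13.45 in untreated arrays (limma adjusted p = 0.0429). Of 17 base excision repair genes 0 passed by limma (5 lower and 0 higher at an unadjusted p, median -0.23). FEN1, the flap nuclease, had a log2 fold change of -0.50 at a limma adjusted p of 0.0506, on the edge of the threshold, and NTHL1, a DNA glycosylase, one of -0.50 (0.0891). FEN1 passed in 5 of the other settings, for example with an intensity trend (limma adjusted p = 0.0280).

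End joining and nucleotide excision repair genes lay nearer to 0. Of 8 end joining genes 0 passed by limma (2 lower and 0 higher at an unadjusted p), with a median of 0.01. POLQ, the polymerase of alternative end joining, and PRKDC, the DNA-dependent protein kinase, had the largest changes at -0.31 and -0.28 (limma adjusted p = 0.284 and 0.247). With probe sets averaged, POLQ stood at -0.45 and PRKDC at -0.22, and neither passed (limma adjusted p = 0.0565 and 0.304). Of 15 nucleotide excision repair genes 0 passed (1 lower and 1 higher at an unadjusted p, median -0.07). DDB2, a damage sensor, and GTF2H3, a TFIIH subunit, had log2 fold changes of 0.47 and -0.43 (limma adjusted p = 0.287 and 0.254). With 1 array left out DDB2 ran from 0.25 to 0.70 and GTF2H3 from -0.61 to -0.26. Whether these lists differ from the 28 genes was not tested.

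**Figure D4:**
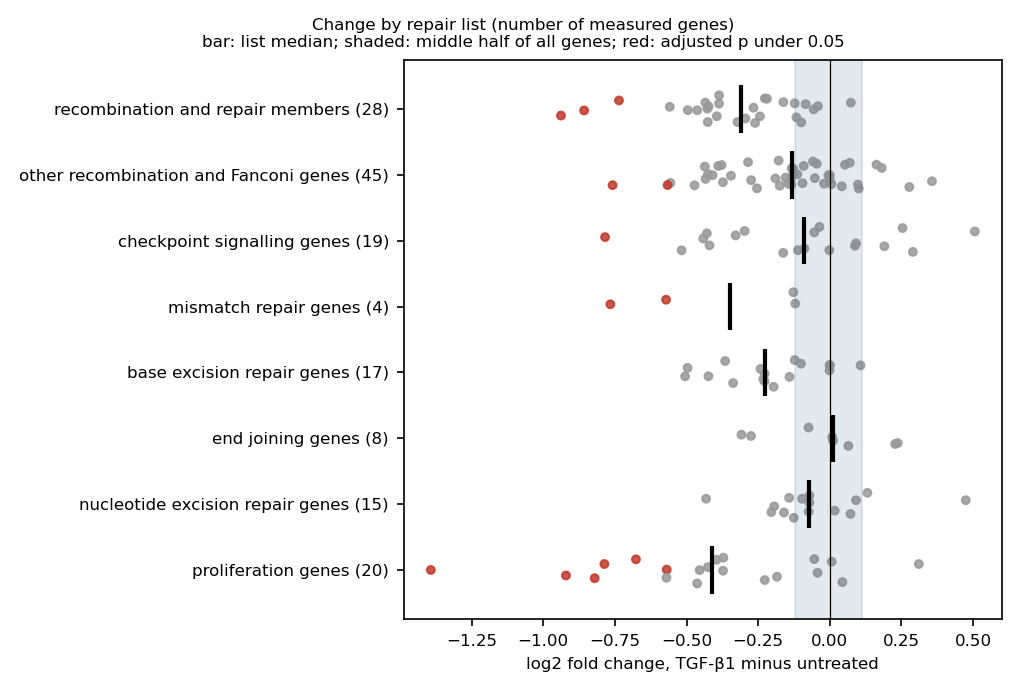
Log2 fold change, TGF-β1 minus untreated, of every measured gene of 8 lists (points; red passed at a limma adjusted p under 0.05), with list medians as bars and the interquartile range of all genes shaded. The 28 repair genes have a median of -0.31, the proliferation genes one of -0.41 and the end joining genes one of 0.01.

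Proliferation genes were read on the same arrays. Of 20 such genes, 6 fell, 0 rose and 14 did not pass, against 1.47% of all genes that fell and 1.87% that rose. At an unadjusted limma p under 0.05, 12 were lower and 0 higher, against 8.54% and 8.18% of all genes. The median log2 fold change of the 20 genes was -0.41, and 17 estimates were below 0 and 3 above. CCNE2 and CCNE1, the E-type cyclins of S phase entry, had log2 fold changes of -1.39 and -0.92. E2F2, an E2F transcription factor, was at -0.82 and MCM2, a subunit of the replicative helicase, at -0.79. All 4 passed by their brightest probe set (limma adjusted p = 0.0185, 0.0176, 0.0352 and 0.0336). With probe sets averaged, E2F2 stood at -0.47 and did not pass (limma adjusted p = 0.05004). CCNE1 stood at -0.51, CCNE2 at -1.30 and MCM2 at -0.79 there, and these passed. The part of these changes in the lower levels of the repair genes was not tested. With any 1 array left out limma called 0 genes in the other repair lists and 0 or 1 of the proliferation genes.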

How the data were processed

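Total RNA was read on 4 one-colour arrays, and groups were taken from sample titles. The deposited table holds log2 values that the authors made by RMA (background correction, quantile normalization and summarization per probe set), per the series' design text and the submitters' processing notes. The log2 scale is judged from the range (2.48 to 15.34). RMA forces the arrays to a common distribution and gives no detection call, so a shift of most genes cannot be seen and dim changes are compressed.

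Of 54675 probe sets, 41091 have a single symbol, and 41037 of these took the RefSeq symbol of their Entrez ID, whether changed or not. Each of 19775 genes was represented by its brightest probe set, by mean over all arrays. The contrast was fitted with lmFit and eBayes of limma 3.58.1, run in R 4.3.3 (two-sided, 6.13 degrees of freedom, no covariate, no filter). Fold changes are TGF-β1 minus untreated, and a call needs a p under 0.05 after Benjamini-Hochberg adjustment across all genes. The fit was run on simulated data with planted changes and independent noise at the replicate spread of these arrays. That run checks the code, not the calls made here. Named genes were all listed members, and of each other list up to 4 called genes with the largest change, or the 2 with the largest change where fewer than 2 were called. The member genes, gene lists and motifs were chosen with earlier results of these data known. Nothing says that replicates were separate cultures, so the spread behind the p-values is that of these 4 arrays and may be technical, and the number of arrays limits the precision. Alternatives were other filters, a trend, centring, averaged or single probe sets, a replicate block, other thresholds and leaving out each array.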

Additional observations from a re-analysis of the deposited data

How the results depend on the processing

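Among the 28 repair genes, UNG and EXO1 passed the threshold with both filters, an intensity trend, both centrings, averaged probe sets and the replicate block, and MSH6 did in all of these but averaged probe sets. At an unadjusted p 15 of the 28 were lower, and 0 were 2-fold lower as well. With 1 array left out 0 were lower and 0 higher in every fit, and single estimates ran from -0.21 to 0.0116 for RAD54L, -0.12 to 0.0354 for MRE11, -0.20 to 0.0347 for FANCF and -0.21 to 0.0937 for ATM. RAD50 turned to -0.0694 with averaged probe sets. The members' median was -0.36 to -0.27 with 1 array left out, where only 1 residual degree of freedom is left. Over all genes, 291 fell and 369 rose, against 443 that fell with means of 7 or more, 1688 and 1617 at an unadjusted p, 73 and 201 at 2-fold as well, and 166 that fell by probe set. With 1 array left out 6 to 21 genes fell and 64 to 85 rose. Same-numbered arrays deviated together (r = 0.364 across genes), but the labels do not say that the numbers pair the samples. With the replicate block 3 of the 28 genes fell, 234 genes fell and 327 rose in all, 0 of the members' probe sets fell, and 1 of the other recombination, 1 of the mismatch repair and 2 of the proliferation genes did. FIGNL1 (limma adjusted p = 0.0602), PCNA (0.0650), E2F2 (0.0724) and MCM2 (0.0578) no longer passed there, while RMI1, TIPIN, PMS1, CCNE1 and CCNE2 did. Leaving out 1 array gave 0 to 1 lower proliferation genes and 0 to 0 lower genes in each other repair list and among the members' probe sets. The causes were not tested. Centring moved the median of all genes by less than 0.1.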

Other observations

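The E2F motif forms searched in the repair genes were also counted over the whole array, after the repair gene values had been seen. Of genes with a promoter window, 30 of 237 that fell held a form of the motif (12.7%) and 11 of 283 that rose (3.89%), beside 824 of all 15384 tested genes (5.36%). CCAAT was held by 40.5% of genes that fell, 42.0% of genes that rose and 41.7% of all tested genes. These shares are given as values, with no test.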
